A study of Mus musculus with 13 samples.

Results

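The transcription factors that set up the oocyte and its follicle were followed through 13 RNA-seq libraries of irradiated mouse oocytes. The genes were taken by name, as Figla, Nobox, Sohlh1, Sohlh2, Lhx8, Taf4b, Tbpl2 and Gcna, and the estimated reads of all transcripts of a gene were summed. Of these 8 genes, 7 were matched among the 49585 genes of the files. Gcna had no gene under that name in the GENCODE M21 annotation of GRCm38. RefSeq places it as Gm52429 on chromosome X from 101695836 to 101706199, where M21 has 0 overlapping genes, so Gcna was not analysed here.

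The oocytes came from ovaries of CD-1 mice at P5, and several ovaries were pooled for a sample. The ovaries were cultured overnight and given 0.5 or 0.2 Gy of γ rays, and the 0 h samples were taken before irradiation. At 0.5 Gy there were 2 libraries each at 0, 1 and 4 h and 1 library each at 2.5 and 6 h. At 0.2 Gy there was 1 library at each of these times. All groups shared the culture, the trypsin digest and the centrifugation by which oocytes were parted from follicular cells. Replicate 1 at 0.5 Gy was labelled as the first generation, replicate 2 and the single libraries at 2.5 and 6 h as the second, and every 0.2 Gy library as the third. The labels do not say what a generation is, and dose and the third generation cannot be told apart. P-values measure the spread between these libraries, which may be technical in part.

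These factors act in a cascade that starts in the embryonic ovary and runs until the oocyte grows. FIGLA, SOHLH1 and SOHLH2 are basic helix-loop-helix (bHLH) proteins, which bind the E-box, a short DNA element, as dimers. NOBOX and LHX8 are homeodomain proteins of the oocyte nucleus, and loss of any of these 5 factors in mice ends in loss of oocytes around or soon after birth. TAF4B and TBPL2 belong to the general transcription machinery, as germ cell forms of a TFIID subunit and of the TATA-binding protein. GCNA is a germ cell nuclear protein that protects the genome.

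Upstream sequences are shown for Figla, the most abundant member per length when all its transcripts are counted. They are also shown for Nobox, Sohlh1 and Sohlh2, whose reads varied together over the libraries. Each is the stretch before the RefSeq start in GRCm38, 5′ to 3′ on the gene's strand, with every E-box of the form CANNTG in capitals. The windows are chr6:86016941-86017190 on the plus strand for Figla, chr6:43309555-43309804 on the minus strand for Nobox and chr2:25847249-25847498 on the minus strand for Sohlh1. The window of Sohlh2 is chr3:55181794-55182027 on the plus strand and stops before the annotated exon.
Figla: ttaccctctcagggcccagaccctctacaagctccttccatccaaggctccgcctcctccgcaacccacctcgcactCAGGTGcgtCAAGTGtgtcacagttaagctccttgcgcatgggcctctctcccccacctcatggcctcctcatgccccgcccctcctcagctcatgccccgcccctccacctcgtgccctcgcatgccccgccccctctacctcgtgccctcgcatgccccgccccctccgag
Nobox: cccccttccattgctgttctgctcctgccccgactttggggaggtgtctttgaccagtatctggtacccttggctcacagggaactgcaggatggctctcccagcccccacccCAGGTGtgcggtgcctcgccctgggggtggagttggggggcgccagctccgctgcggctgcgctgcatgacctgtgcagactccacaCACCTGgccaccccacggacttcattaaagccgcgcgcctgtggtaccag
Sohlh1: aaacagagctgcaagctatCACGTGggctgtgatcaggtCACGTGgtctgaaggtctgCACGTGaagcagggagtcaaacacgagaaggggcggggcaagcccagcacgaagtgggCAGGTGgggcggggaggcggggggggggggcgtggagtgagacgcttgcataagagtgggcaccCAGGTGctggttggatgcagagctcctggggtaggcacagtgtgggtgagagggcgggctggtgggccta
Sohlh2: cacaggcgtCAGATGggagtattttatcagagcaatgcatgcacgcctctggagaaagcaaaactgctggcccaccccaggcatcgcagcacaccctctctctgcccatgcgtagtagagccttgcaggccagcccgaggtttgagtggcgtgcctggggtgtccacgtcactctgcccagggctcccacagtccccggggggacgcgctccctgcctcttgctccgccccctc

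Motifs were searched on both strands in the 250 bases before the start. Of 32851 RefSeq windows of the same length, 66.2% held at least 1 CANNTG and 31.8% at least 2. Sohlh1 held 5, a number reached by 1.15% of windows. Of these, 3 were CACGTG, at −231, −211 and −192 from the start, and 0.0609% of all windows held at least 3. This count was picked out of several motifs and windows, and was not tested. The other E-boxes of Sohlh1, at −134 and −70, read CACCTG on 1 strand, a form held by 17.2% of windows. Nobox held the CACCTG form at −137 and −50, and Figla held it at −173 beside a further E-box at −164. Tbpl2 held 4 E-boxes, a number reached by 3.84% of windows, and Sohlh2 held 1. The Gcna window held 1 E-box and a TATAAA element at −32, and 12.4% of all windows held TATAAA. Lhx8 held no CANNTG in this window, and its RefSeq start lies 99 bases downstream of the M21 one. The transcript Lhx8-205, which took 89.1% of the Lhx8 reads, starts further inside the gene. The stretch before that start was not searched. Windows were matched for 7 of the 8 genes, and Taf4b had none. A match says that the letters are there, not that a protein binds them.

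The libraries held between 15709549 and 30430104 estimated reads, the lowest in replicate 2 of 0 h at 0.5 Gy. Cdkn1a and Mdm2, textbook targets of the p53 family, were taken as a check of the irradiation. From early to late at 0.5 Gy they rose by 3.32 and 2.63 on the log2 scale (adjusted p = 0.00362 for each, edgeR's quasi-likelihood test). At 0.2 Gy their estimates were 1.45 and 2.13, with unadjusted p-values of 0.0157 and 3.62e-05, and neither was called (adjusted p = 0.638 and 0.0639, edgeR). The smaller set of libraries at 0.2 Gy thus did not call these genes either. The oocyte markers Zp3 and Gdf9 had medians of 191 and 127 TPM (a level scaled by transcript length), and all 8 oocyte markers were detected. RNA of other ovarian cells was present as well. The granulosa markers Amhr2 and Inha had medians of 491 and 295 TPM, and the stroma marker Dcn had 166 TPM. No marker of either list was at 0 in any library. The 9 granulosa markers summed to between 632 and 1165 TPM, and the 8 oocyte markers to between 391 and 613 TPM. Hba-a1 and Hbb-bs, from red blood cells, together with Alas2 summed to between 971 and 6666 TPM. The granulocyte genes S100a8 and S100a9 had 184 and 65.9 TPM in replicate 2 of 0 h at 0.5 Gy, and at most 6.37 and 3.63 TPM in every other library. The other 3 immune markers, Ptprc, Csf1r and Cd68, did not exceed 3.28 TPM in any library. In such mixed samples, fewer oocytes and less RNA per oocyte cannot be told apart.

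The levels of the 7 members spread widely, and their order per length was nearly fixed. Figla was the highest with a median of 185 TPM over 13 libraries, from 98.0 to 242 TPM. Nobox followed with 94.0 TPM, from 65.0 to 121 TPM. Sohlh1 had 31.3 TPM, from 15.0 to 51.3 TPM. The ranges of Figla and Nobox overlapped, yet Figla stood above Nobox within each of the 13 libraries. Every library of Nobox was above the highest of Sohlh1. Tbpl2, with a median of 12.4 TPM and a range from 9.70 to 17.3 TPM, stood below Sohlh1 in 13 of 13 libraries. Lhx8 had 10.6 TPM, from 6.58 to 23.7 TPM. Tbpl2 was above Lhx8 in 8 of 13 libraries, so that this pair did not differ beyond its spread. Sohlh2 had 6.44 TPM, from 2.86 to 9.78 TPM, and stood below Lhx8 in every library. Taf4b was the lowest with 0.938 TPM, from 0.571 to 1.47 TPM.

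**Figure D1:**
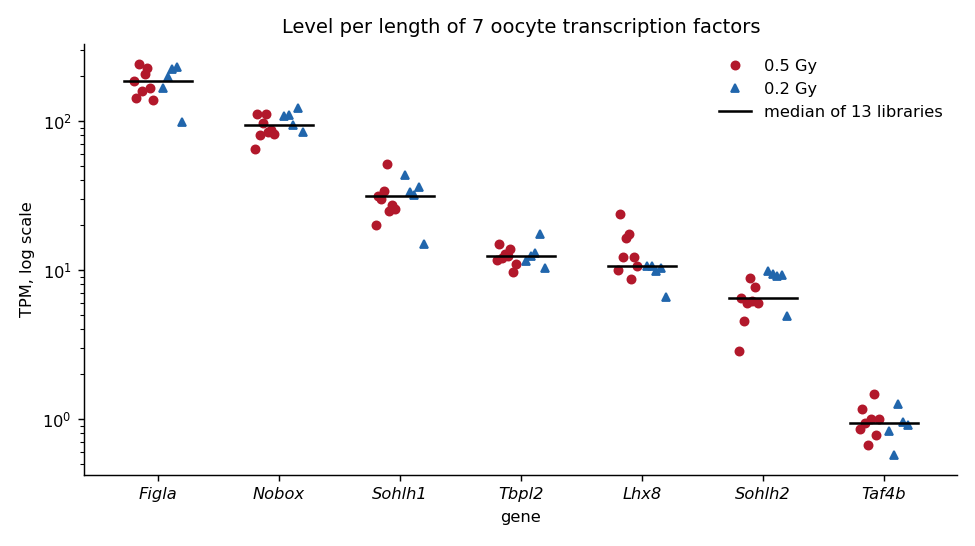
TPM of the 7 members on a log axis, with 1 point for each library (circles, 8 libraries of 0.5 Gy; triangles, 5 of 0.2 Gy) and a bar at the median of 13 libraries. The medians run from 185 TPM for Figla to 0.938 TPM for Taf4b, and the points of Tbpl2 and Lhx8 overlap.

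Among protein-coding genes with reads in a library, the median percentile was 98.5 for Figla and 96.7 for Nobox. It was 90.3 for Sohlh1, 81.1 for Tbpl2, 79.8 for Lhx8, 72.4 for Sohlh2 and 43.3 for Taf4b. In reads, Nobox exceeded Figla, with medians of 353 and 136 CPM (reads scaled by library size), because CPM takes no account of length. Taf4b was still covered by 270 to 676 reads per library. No sequence of 30 bases in the transcripts of the 7 members was shared exactly with a transcript of another M21 gene. Copies with mismatches were not searched.

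Salmon divides the reads of a gene among its transcripts, and for 4 members this bears on the level. Figla lies on chromosome 6 from 86016171 to 86020996 (plus strand, ENSMUSG00000030001). Its coding transcript Figla-201 of 759 bases took 69.2% of the reads summed over the 13 libraries, as all shares of reads here are given. The transcript Figla-202 of 359 bases, annotated as a processed transcript with an upstream first exon, took 30.8% of the reads but a median of 64.9% of the TPM, since it is short. By the transcript with most reads alone, Figla-201 had a median of 66.7 TPM and Nobox-201 48.7 TPM. Nobox-202 is annotated as coding too, and held a median of 35.4% of the Nobox TPM, beside 54.5% for Nobox-201. Nobox-203, the only Nobox transcript not annotated as coding, held a median of 11.3%. The median of Figla-201 alone, 66.7 TPM, was below that of all Nobox transcripts together, 94.0 TPM. The lead of Figla over Nobox per length thus rests on counting Figla-202, which is not annotated as coding. The coding transcripts of Nobox were not summed in each library. Nobox lies on chromosome 6 from 43303674 to 43309554 (minus strand, ENSMUSG00000029736). Nobox-201 took 71.1% of its reads, Nobox-202 21.9% and the processed transcript Nobox-203 7.01%. Lhx8 lies on chromosome 3 from 154306294 to 154330659 (minus strand). Lhx8-205, which starts inside the gene at 154330059, took 89.1% of its reads, and Lhx8-201, which starts at the outer end, took 3.11%. Lhx8-203, annotated to nonsense-mediated decay, took 7.26%. Tbpl2 lies on chromosome 2 from 24071721 to 24096595 (minus strand), and its coding transcripts Tbpl2-201 and Tbpl2-202 took 67.8% and 32.2% of the reads. By the main transcript alone, Lhx8 passed Tbpl2, with 8.33 against 7.55 TPM.

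**Figure D2:**
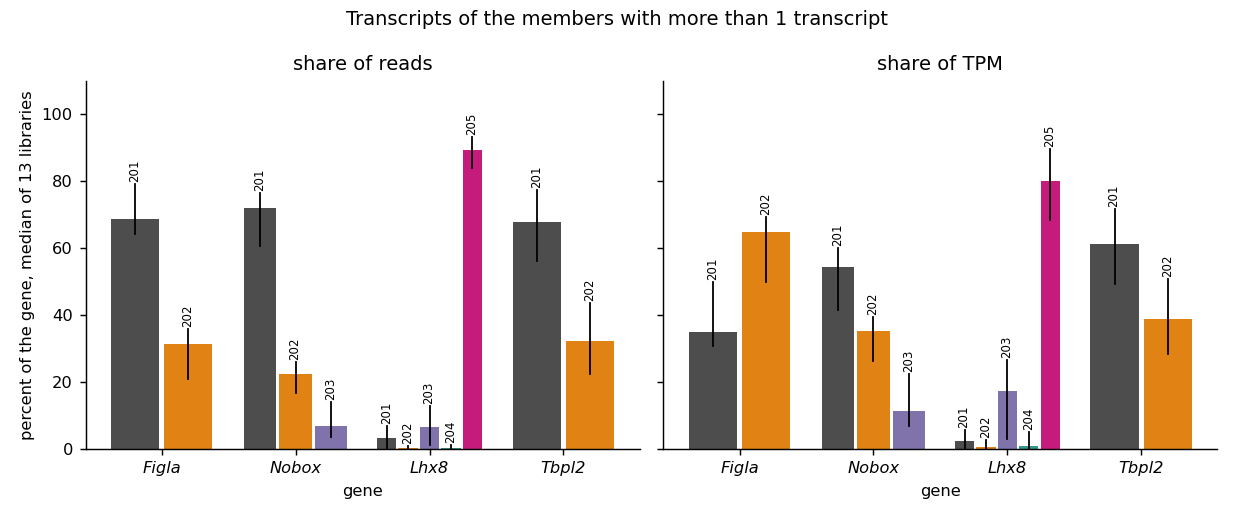
Share of each transcript in the reads (left) and in the TPM (right) of its gene, in percent. Bars are medians of 13 libraries, lines run from the lowest to the highest library, and labels give the transcript number. Figla-202 holds a median of 31.3% of the reads and 64.9% of the TPM, and Lhx8-205 leads Lhx8 in both.

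The remaining members had 1 transcript each in the files. Sohlh1 lies on chromosome 2 from 25842995 to 25847248 (minus strand), and Sohlh2 on chromosome 3 from 55182028 to 55209957 (plus strand). Taf4b lies on chromosome 18 from 14783245 to 14900359 (plus strand).

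The question put to the time course was whether irradiation shifts these factors while the damage response builds up. At 0.5 Gy, 4 late libraries (2.5, 4 and 6 h) were set against 4 early ones (0 and 1 h). The 2.5 and 6 h libraries have no counterpart of the first generation, so generation and time are partly tied at this dose. At 0.2 Gy, the late libraries of 4 and 6 h were set against the early libraries of 0 and 1 h, in a joint fit with the 0.5 Gy libraries without 2.5 h. The libraries of a side are different time points, so their spread includes change over time. All 7 members passed the filter on low counts in each comparison. Calls needed both an adjusted p below 0.05 and a log2 fold change beyond 1 in either direction.

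No member was called in any comparison. From early to late at 0.5 Gy, edgeR called 0 of 7 members, against 0.128% of 22588 genes tested. At 0.2 Gy it called 0 of 7, against 0.0462% of 28162 genes. In the test of the difference between the doses it called 0 of 7, against 0.032% of genes. At an unadjusted p under 0.05 there was 1 member at 0.5 Gy, 0 at 0.2 Gy and 1 in the difference, beside 9.06%, 7.29% and 8.14% of all genes. DESeq2 also called 0 members. With calls this rare among all genes, 0 of 7 says little of itself, and the intervals are the measure of what could have changed. From early to late at 0.5 Gy, the 95% intervals of the 7 log2 fold changes lay between −0.95 and 0.97. At 0.2 Gy they were wider and lay between −1.31 and 1.22. The median log2 fold change of the members was 0.13 at 0.5 Gy and −0.13 at 0.2 Gy, beside −0.02 and −0.03 over all genes. These bounds and medians are for pooled times. Single times were bounded less closely, with intervals between −1.39 and 1.49 for 4 h against 0 h at 0.5 Gy.

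**Figure D3:**
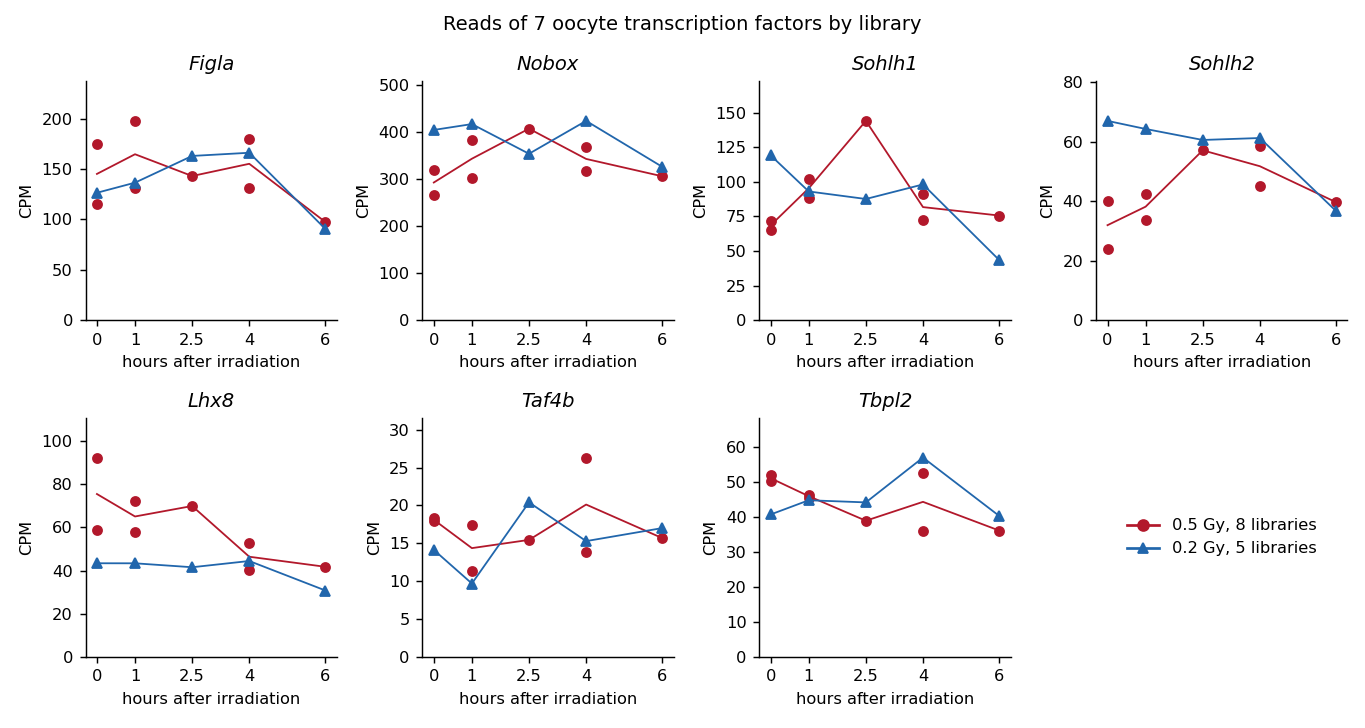
CPM of each member against hours after irradiation, with 1 point for each library (circles, 0.5 Gy; triangles, 0.2 Gy) and lines through the mean at each time. Every axis starts at 0. At 6 h of 0.2 Gy, 6 of the 7 genes have their lowest value of that dose.

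Among the bHLH factors, Figla directs the zona pellucida genes and the first enclosure of oocytes in follicles. Its libraries of 0.5 Gy held 175 and 115 CPM at 0 h, 198 and 132 CPM at 1 h, 143 CPM at 2.5 h, 179 and 131 CPM at 4 h and 97.3 CPM at 6 h. Replicate 1 was above replicate 2 at each of the 3 times with duplicates, and the 6 h library was the lowest. Early libraries averaged 155 ± 38.2 CPM and late ones 138 ± 33.9 CPM (SD, n = 4 each), and the groups overlapped. The log2 fold change was −0.17 (SE 0.22, adjusted p = 0.852, edgeR).

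At 0.2 Gy, Figla had 126, 136, 163, 166 and 90.4 CPM in time order from 0 to 6 h. The 6 h library was the lowest at this dose too, and the log2 fold change of late against early libraries was −0.04 (SE 0.34, adjusted p = 0.990, edgeR).

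Sohlh1 starts the differentiation of oocytes in primordial follicles and acts upstream of Nobox and Lhx8. The 0.5 Gy series gave 65.2 and 72.0 CPM at 0 h, 88.6 and 102 CPM at 1 h, 144 CPM at 2.5 h, 72.3 and 91.1 CPM at 4 h and 75.6 CPM at 6 h. The 2.5 h library was the highest and the 0 h libraries were the lowest. The log2 fold change of 2.5 h against 0 h was 1.10 (SE 0.31, 95% interval 0.40 to 1.80), with an unadjusted p of 0.00631 and an adjusted p of 0.864 (edgeR), in a comparison that called 0% of 28468 genes. From early to late it was 0.22 (SE 0.23, adjusted p = 0.814, edgeR), and −0.04 without the 2.5 h library.

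At 0.2 Gy, Sohlh1 had 119, 93.0, 87.6, 98.1 and 43.5 CPM in time order from 0 to 6 h. The 2.5 h library was not high at this dose. Late against early, the log2 fold change was −0.58 (SE 0.33, adjusted p = 0.732, edgeR). It was −0.10 without the 6 h library and −1.30 without the 4 h library (adjusted p = 0.507, edgeR).

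Sohlh2, the dimer partner of SOHLH1, had the smallest unadjusted p of the members from early to late at 0.5 Gy. It had 24.0 and 39.9 CPM at 0 h, 33.8 and 42.6 CPM at 1 h, 57.1 CPM at 2.5 h, 45.0 and 58.5 CPM at 4 h and 39.7 CPM at 6 h. Early libraries averaged 35.1 ± 8.26 CPM and late ones 50.1 ± 9.22 CPM (SD, n = 4 each), and the groups overlapped through the 6 h library. The late libraries stood 1.42-fold above the early ones (95% interval 1.03 to 1.96). This is a log2 fold change of 0.51 (SE 0.21), with an unadjusted p of 0.0328 and an adjusted p of 0.504 (edgeR).

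At 0.2 Gy, Sohlh2 had 67.0, 64.3, 60.6, 61.3 and 36.7 CPM in time order from 0 to 6 h. Both late libraries lay under both early ones, and the 4 h library did so narrowly. Such an order arises readily with so few libraries a side, and its share over all genes was not counted. The log2 fold change of Sohlh2 was −0.42 (SE 0.31, adjusted p = 0.789, edgeR), and was −0.09 without the 6 h and −0.85 without the 4 h library. The difference between the doses was −0.87 on the log2 scale (SE 0.39, 95% interval −1.72 to −0.02), with an unadjusted p of 0.0451 and an adjusted p of 0.606 (edgeR), and ranged from −0.54 without the 6 h library of 0.2 Gy to −1.32 without the 4 h library of that dose. At 0 h, before any irradiation, the library of the 0.2 Gy series already held 67.0 CPM beside 24.0 and 39.9 CPM, so the doses started apart.

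In TPM, Sohlh1 stood above Sohlh2 by a median of 4.29-fold, from 3.06 to 7.03-fold over the 13 libraries.

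Nobox, of the homeodomain factors, drives Gdf9 and other genes of the growing oocyte. In the 0.5 Gy libraries it had 265 and 320 CPM at 0 h, 303 and 383 CPM at 1 h, 407 CPM at 2.5 h, 316 and 369 CPM at 4 h and 306 CPM at 6 h. Replicate 2 was above replicate 1 at each time with duplicates, opposite to Figla. At 0.2 Gy it had 404, 416, 353, 423 and 326 CPM in time order from 0 to 6 h. Nobox varied least of the members but for Tbpl2, with the highest library 1.60 times the lowest over all 13. The log2 fold changes were 0.13 (SE 0.16) at 0.5 Gy and −0.13 (SE 0.21) at 0.2 Gy, with adjusted p-values of 0.841 and 0.913 (edgeR).

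Lhx8, a LIM homeodomain factor, is needed for oocytes to survive the breakdown of germ cell nests. Its libraries of 0.5 Gy held 58.6 and 92.4 CPM at 0 h, 57.9 and 72.2 CPM at 1 h, 69.9 CPM at 2.5 h, 40.2 and 52.6 CPM at 4 h and 41.7 CPM at 6 h. The 3 libraries of 4 and 6 h lay below all 5 earlier ones, and the share of all genes with such an order was not counted. Early libraries averaged 70.3 ± 16.1 CPM and late ones 51.1 ± 13.7 CPM (SD, n = 4 each), and they overlapped through the 2.5 h library. The late libraries stood at 0.725 of the early level (95% interval 0.518 to 1.01), a log2 fold change of −0.46 (SE 0.22), with an unadjusted p of 0.0582 and an adjusted p of 0.565 (edgeR). It was −0.30 without replicate 2 of 0 h, the shallow library with the granulocyte genes, and −0.65 with 4 and 6 h alone as late.

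At 0.2 Gy, Lhx8 had 43.4, 43.4, 41.5, 44.4 and 30.7 CPM in time order from 0 to 6 h. The first 4 times were nearly level. All 5 libraries were under every library of 0 to 2.5 h at 0.5 Gy, but overlapped those of 4 and 6 h (40.2, 52.6 and 41.7 CPM). The share of all genes with such an order was not counted, and dose and the third generation cannot be told apart in it. The log2 fold change was −0.21 (SE 0.27, adjusted p = 0.888, edgeR), and was 0.04 without the 6 h and −0.51 without the 4 h library.

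Taf4b encodes the gonadal TFIID subunit that mice need for their stock of primordial follicles. The 0.5 Gy series gave 17.9 and 18.3 CPM at 0 h, 17.4 and 11.3 CPM at 1 h, 15.5 CPM at 2.5 h, 26.3 and 13.9 CPM at 4 h and 15.7 CPM at 6 h. The highest and the third lowest of the 13 libraries were the duplicates of 4 h. At 0.2 Gy it had 14.1, 9.69, 20.4, 15.3 and 17.0 CPM in time order from 0 to 6 h. Both late libraries at 0.2 Gy were above both early ones, an order that arises readily with so few libraries a side. Its share over all genes was not counted. The log2 fold change at 0.2 Gy was 0.44 (SE 0.36, adjusted p = 0.807, edgeR), against 0.13 (SE 0.26, adjusted p = 0.916, edgeR) at 0.5 Gy. Per length, the ubiquitous paralog Taf4 exceeded Taf4b in 13 of 13 libraries, by a median of 3.15-fold. Part of the Taf4 reads may come from the other ovarian cells in the samples.

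Tbpl2 encodes the oocyte paralog of the TATA-binding protein, which takes over from TBP as oocytes grow. In the 0.5 Gy libraries it had 52.0 and 50.3 CPM at 0 h, 46.5 and 45.6 CPM at 1 h, 39.0 CPM at 2.5 h, 52.6 and 36.2 CPM at 4 h and 36.2 CPM at 6 h. The late libraries lay below the early ones but for replicate 1 of 4 h, which was the highest of all 8. Early libraries averaged 48.6 ± 3.08 CPM and late ones 41.0 ± 7.87 CPM (SD, n = 4 each). Late against early, the log2 fold change was −0.25 (SE 0.17, adjusted p = 0.696, edgeR). At 0.2 Gy it had 40.8, 44.9, 44.2, 57.1 and 40.4 CPM in time order from 0 to 6 h, and the 4 h library stood out. The log2 fold change there was 0.19 (SE 0.24, adjusted p = 0.890, edgeR). Tbp exceeded Tbpl2 per length in 13 of 13 libraries, by a median of 1.39-fold, and Tbpl1, a further paralog, did so in 12 of 13. Here too, reads of the paralogs may come in part from other ovarian cells.

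**Figure D4:**
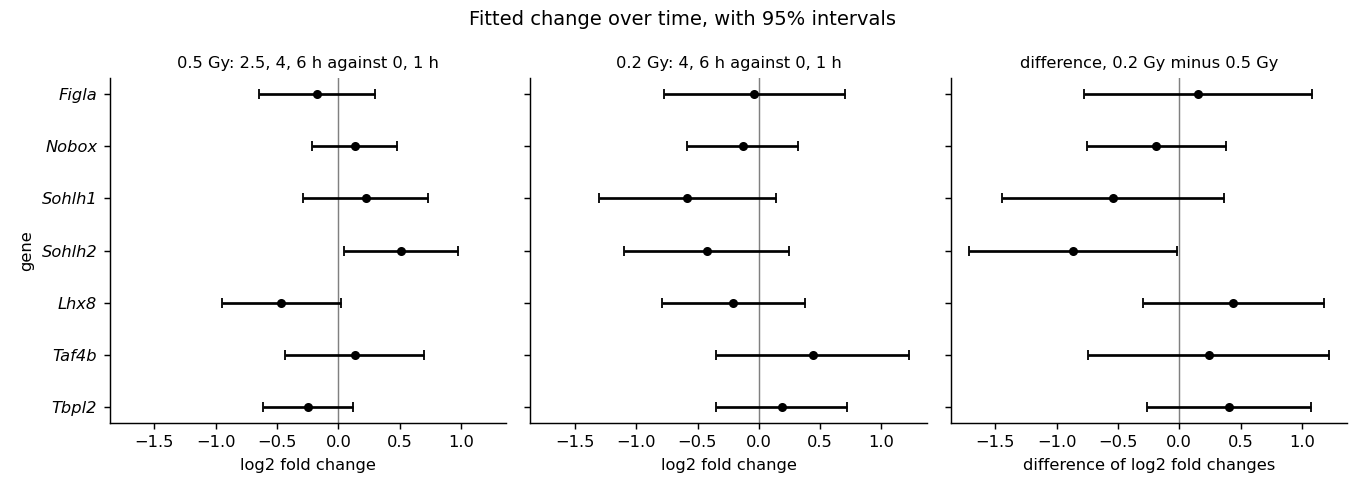
Log2 fold changes of late against early libraries at 0.5 Gy and 0.2 Gy, and the difference between the doses, for the 7 members. Points are edgeR estimates and lines their 95% intervals. The intervals of Sohlh2 at 0.5 Gy and in the difference leave 0 outside, and none of these passed the adjustment over all genes.

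Each later time of 0.5 Gy was also compared with 0 h. At 1, 2.5, 4 and 6 h, edgeR called 0 of 7 members and 0 of all 28468 genes (0%). Without adjustment, 1133, 1590, 1658 and 1691 genes (3.98%, 5.59%, 5.82% and 5.94%) had p under 0.05, of which the members gave only Sohlh1 at 2.5 h, and DESeq2 called 22, 88, 124 and 144 genes and 0 members. Next to Sohlh1, Sohlh2 had log2 fold changes of 0.87 (SE 0.40) at 2.5 h and 0.73 (SE 0.34) at 4 h, with unadjusted p-values of 0.0578 and 0.0590 (edgeR). Lhx8 had −0.67 (SE 0.32) at 4 h and −0.81 (SE 0.40) at 6 h, with unadjusted p-values of 0.0652 and 0.0766 (edgeR). The comparisons share the 0 h libraries, and the 2.5 and 6 h values rest on 1 library each.

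The 6 h library of 0.2 Gy stood apart for these genes. It held the lowest value of the 5 libraries of that dose for 6 of 7 members, all but Taf4b, and this was seen before it was counted. Over 10709 genes with a mean of at least 10 CPM at 0.2 Gy, 19.5% had their lowest value there. The same was true of 3 of 8 oocyte markers and of 2 of the 16 target genes that reach this level. There is no second library of this time and dose, and the count was not tested. At 6 h of 0.5 Gy, Figla had its lowest value of the 8 libraries as well.

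Nobox, Sohlh1 and Sohlh2 varied together over the libraries. After the mean of each dose was taken out, Pearson's r of log2 CPM over 13 libraries was 0.85 for Nobox and Sohlh2, 0.81 for Nobox and Sohlh1 and 0.76 for Sohlh1 and Sohlh2. The other 18 pairs lay between −0.57 and 0.62. Generations within 0.5 Gy were not taken out. At 0, 1 and 4 h of that dose, Nobox, Sohlh1 and Sohlh2 were each higher in replicate 2 than in replicate 1. Lhx8 was higher in replicate 2 at these times too, and Figla and Tbpl2 were lower in it. The part of this in r was not tested. These values of r are descriptions, since all genes share the libraries and their scaling. Across 10066 protein-coding genes with a mean of at least 10 CPM, the gene most like Figla was Dppa3 (r = 0.94), a maternal factor of the early embryo, followed by Mrpl24 and Bnip3l. Rnf41 was most like Nobox (0.92), Marveld2 most like Sohlh1 (0.89) and Srp68 most like Sohlh2 (0.94). Esr1, the estrogen receptor of ovarian somatic cells, was most like Lhx8 (0.90), with Klf11 and Ppfibp2 next. Nsd1 was most like Taf4b (0.89) and Nadk2 most like Tbpl2 (0.96). Among so many genes, high values of r over 13 libraries arise readily.

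The genes known to depend on these factors were followed as well. Of 17 target genes, 0 were called at either dose by edgeR, and 1 at each dose had an unadjusted p under 0.05. At 0.5 Gy, 7 had higher and 10 lower estimates, with a median log2 fold change of −0.04 beside −0.02 over all genes. The largest positive estimates were those of Nlrp5, a maternal effect gene, with 0.35 (SE 0.33), and of Kit, the stem cell factor receptor, with 0.25 (SE 0.14). The largest negative ones were those of Oosp1, an oocyte-secreted protein, with −0.85 (SE 0.51), and of Bmp15, an oocyte growth factor, with −0.75 (SE 0.49). At 0.2 Gy, 14 of 17 had higher estimates, with a median of 0.30 beside −0.03 over all genes. This median was 0.60 without the 0 h, 0.52 without the 4 h and 0.24 without the 6 h library of that dose. Oosp1 and Bmp15 had 1.25 (SE 0.75) and 1.44 (SE 0.72) there, opposite in sign to 0.5 Gy, and their adjusted p-values were 0.745 and 0.704 (edgeR).

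**Figure D5:**
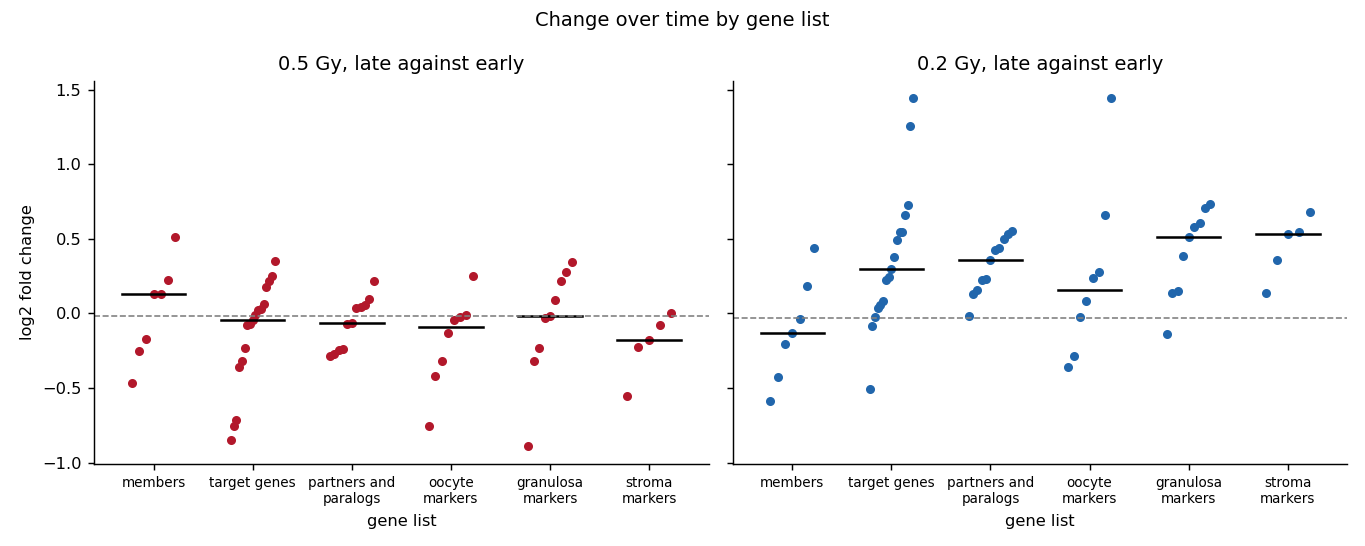
Log2 fold changes of late against early libraries at 0.5 Gy (left) and 0.2 Gy (right) for the 7 members and 5 gene lists. Each point is a gene, solid bars are list medians and the dashed line is the median of all genes tested. At 0.2 Gy the medians of the target, partner, granulosa and stroma lists lie between 0.30 and 0.53, and that of the members at −0.13.

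The partners gave a similar picture. These were the E proteins Tcf3, Tcf4 and Tcf12 that pair with bHLH factors, the LIM cofactor Ldb1, the paralogs Taf4, Tbp and Tbpl1, and the TFIIA and TFIIB genes Gtf2a1, Gtf2a2, Gtf2a1l and Gtf2b. Of these 11 genes, 0 were called at either dose, with medians of −0.07 at 0.5 Gy and 0.36 at 0.2 Gy, where 10 of 11 had higher estimates. Figla exceeded Tcf12 per length by a median of 13.5-fold and Tcf3 by 42.9-fold. These ratios include Figla-202, and part of the Tcf12 and Tcf3 reads may come from other ovarian cells. At 0.2 Gy, 8 of 9 granulosa markers and 5 of 5 stroma markers also had higher estimates, with medians of 0.51 and 0.53 and 0 called. The granulosa markers summed to between 825 and 953 TPM in the early and between 916 and 996 TPM in the late libraries of 0.2 Gy, and the stroma markers to between 202 and 328 TPM and between 290 and 302 TPM. The part of these markers in the values of the target and partner lists was not tested. The 0 and 1 h libraries of 0.2 Gy also differed as a whole from all others. Their TMM scaling factors were 1.12 and 1.11, where the other libraries had 0.937 to 1.04. They held 103132 and 103483 transcripts with reads, where the others held at most 95069. The part of this in the estimates at 0.2 Gy was not tested.

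Stat3, Dynll1 and Sub1 are factors that, together with members, can turn stem cells into oocyte-like cells. Dynll1 and Sub1 had medians of 567 and 562 TPM, Stat3 ranged from 14.4 to 44.1 TPM, and 0 of 3 were called, with log2 fold changes between −0.27 and −0.01 at 0.5 Gy and between −0.19 and 0.22 at 0.2 Gy. Genes of earlier germ cells were low. Zglp1, which opens the oogenic program, had a median of 6.43 TPM, and Stra8, Gm4969 (Meiosin), Nanos3, Prdm14 and Tfap2c had between 0.042 and 1.27 TPM. Stra8 and Prdm14 did not pass the filter at 0.5 Gy, and 0 of the others were called at either dose.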

How the data were processed

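Total RNA of oocyte preparations was sequenced in 13 libraries. The authors ran salmon on GRCm38 transcripts, and the deposited estimated counts of 130740 transcripts in every library are unfiltered and not scaled. The deposited TPM values, scaled by effective transcript length, come from the same salmon runs. Further deposited tables hold merged normalized counts and the authors' own DESeq2 comparisons (fold changes and p-values), and were not used here.

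Estimated counts were summed per gene of GENCODE M21 by transcript identifier without version, leaving out 402 transcripts without a gene (at most 0.495% of reads), and rounded. Sums were scaled with TMM, filtered with filterByExpr and fitted with edgeR 4.0.16 in R 4.3.3 (glmQLFit, glmQLFTest) with Benjamini-Hochberg adjustment over all genes tested. Intervals are at 95%. Levels between genes are TPM summed per gene, and levels of 1 gene between libraries are TMM-scaled CPM. Likeness used log2 CPM with a prior count of 2. With at least 270 reads per member and library, counting error was small beside the spread between libraries.

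The members, gene lists and tests were chosen with earlier results of these data known. All members were named, with the called genes and the 2 largest rises and falls of the target list, the partner, cofactor and earlier germ cell lists, Cdkn1a and Mdm2, the marker lists, and the genes most like each member. Alternatives were RLE size factors, no filter, DESeq2 1.42.0 with a beta prior, limma 3.58.1 on log2(TPM + 1), a block for the generation, late as 4 and 6 h only, single transcripts, CPM in place of TPM, and each library left out. The steps were tested on simulated counts. Promoter windows are from RefSeq (GRCm38.p6), and no exon bases were printed.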

Additional observations from a re-analysis of the deposited data

Results flagged for a closer look

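A sample was taken to stand apart where its gap to the nearest other sample was large for the range of its group by Dixon's criterion. Of 21 groups of 4 or 5 libraries tested in the 7 members, 5 held such a sample, where chance gives about 5% of groups. Over all genes with a mean of at least 10 CPM in the same sets of libraries, 5.72% of groups held one, 5.14% among the early and 5.94% among the late libraries of 0.5 Gy and 6.08% at 0.2 Gy. The members gave 1, 1 and 3 of 7 in that order, and they share their libraries. At 0.2 Gy, the 6 h library was low for Sohlh2, with 36.7 CPM where the others held at least 60.6 CPM, and for Lhx8, with 30.7 CPM where the others held at least 41.5 CPM. In the same dose, the 4 h library was high for Tbpl2, with 57.1 CPM where the others held at most 44.9 CPM. The libraries of a dose are different time points, so these gaps may also be change over time. At 0.5 Gy, Taf4b was low in replicate 2 of 1 h among the early libraries, with 11.3 CPM beside 17.4 to 18.3 CPM. Among the late libraries it was high in replicate 1 of 4 h, with 26.3 CPM beside 13.9 to 15.7 CPM.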

How the results depend on the processing

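No member was called in any comparison under any alternative run. The smallest adjusted p of a member was 0.188, for Sohlh1 at 2.5 h against 0 h with DESeq2, and 0.358 for Sohlh2 from early to late at 0.5 Gy. Sohlh2 and Lhx8 kept their direction at 0.5 Gy under all 15 alternatives, from 0.37 to 0.63 and from −0.65 to −0.29.

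Directions that turned were those of small estimates, and their causes were not tested. At 0.5 Gy, Figla was 0.020 with limma and Sohlh1 was −0.043 with late as 4 and 6 h only. With 1 library left out, Sohlh1 ranged from −0.043 (without 2.5 h) to 0.36 and Taf4b from −0.10 (without replicate 1 of 4 h) to 0.24. At 0.2 Gy, Figla was 3.9e-04 with RLE and 3.1e-04 with DESeq2. With 1 library left out, Figla ranged from −0.55 to 0.35, Nobox from −0.35 to 0.055, Lhx8 from −0.51 to 0.045 and Tbpl2 from −0.099 to 0.42. Figla, Nobox and Lhx8 turned without 6 h, Figla also without 1 h (0.029), and Tbpl2 without 4 h. In the difference between doses, Figla was −0.22 with limma and ranged from −0.39 to 0.54 with 1 library left out, turning without 4 h of 0.2 Gy or 6 h of 0.5 Gy (−0.038). Taf4b ranged from −0.0012 (without 1 h of 0.2 Gy) to 0.58.

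The number of all genes called, in the order early to late at 0.5 Gy, at 0.2 Gy and their difference, was 29, 13 and 9. It was 58, 32 and 22 without the filter on low counts, 123, 129 and 115 with DESeq2, and 5, 63 and 39 with limma. At 0.5 Gy it was 14 with late as 4 and 6 h only. With 1 library left out it ranged from 10 to 37, from 1 to 18 and from 0 to 13. At 0.5 Gy it was 10 without replicate 1 of 0 h, replicate 2 of 4 h or 6 h, 12 without replicate 2 of 0 h and 14 without 2.5 h. At 0.2 Gy it was 1 without 1 h and 4 without 0 h of that dose, 7 without replicate 2 of 4 h, and 8 without replicate 2 of 0 or of 1 h of 0.5 Gy. In the difference it was 0 without 0 h and 1 without 1 h of 0.2 Gy. At 0.5 Gy, leaving out replicate 2 of 0 or of 1 h gave 1 there, replicate 1 or 2 of 4 h or the 6 h library gave 2, and replicate 1 of 1 h gave 5. For 1, 2.5, 4 and 6 h against 0 h, 0 genes were called with edgeR. These numbers were 30, 56, 80 and 78 without the filter and 22, 88, 124 and 144 with DESeq2, and limma called 3 at 2.5 h. With 1 library left out they ranged from 0 to 4, from 0 to 7, from 0 to 10 and from 0 to 6.

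Over all genes passing the filter, samples that share a generation deviated together only weakly. The r was 0.13, 0.078 and 0.11 between 0 and 1, 0 and 4, and 1 and 4 h, so the numbers were not taken to pair them. Among the members, however, Nobox, Sohlh1, Sohlh2 and Lhx8 were higher in replicate 2 at each of these times. Figla and Tbpl2 were higher in replicate 1 each time, and Taf4b was mixed. The share of all genes with such a fixed order was not counted. With the replicate block for the generation, 18 genes were called from early to late at 0.5 Gy, and 1, 6 and 7 at 2.5, 4 and 6 h against 0 h. The early to late estimates of Figla, Nobox and Sohlh1 at 0.5 Gy were −0.02, 0.07 and 0.13 with this block, beside −0.17, 0.13 and 0.22 without it. Those of Sohlh2, Lhx8, Taf4b and Tbpl2 were 0.44, −0.58, 0.22 and −0.21 with it, beside 0.51, −0.46, 0.13 and −0.25. With the block exchanged at 1 and 4 h, after a discrepancy between the sources on which generation these belong to, 7 genes were called at 0.2 Gy and 1 in the difference.

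In CPM in place of TPM, Nobox had the highest median and Sohlh2 passed Tbpl2 and Lhx8.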
